A study of Rattus norvegicus with 14 samples.

Results

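Rat aortic smooth muscle cells given platelet-derived growth factor (PDGF) for 24 h were compared with cells taken before stimulation. The comparison used 5 of the 14 RNA-seq libraries of the series, 3 of PDGF at 24 h and 2 of unstimulated cells (0 h), chosen by the group names in the column headers. All 17312 genes of the deposited tables belonged to it, and the 92 synthetic spike-in rows were left out. The smooth muscle cells came from a commercial supplier and were grown in medium with fetal bovine serum, and both groups then went without serum for 24 h. PDGF was added at 925 ng/ml, per the labels, and neither group received JQ1, the bromodomain inhibitor used in other groups of the series. Unstimulated cells kept for a further 24 h were not analysed here, so PDGF and a further 24 h in culture cannot be told apart. The sources used here give no strain or age of the donor rats and do not say that libraries came from separate cultures. The p-values therefore measure only the spread between libraries within a group, estimated over all 14 libraries of the series, and this spread may be technical.

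Vascular smooth muscle cells hold a contractile state in which serum response factor (SRF) and its coactivator myocardin drive genes of actin filaments, smooth muscle myosin and the dense bodies that anchor them. PDGF is released by platelets and by cells of an injured vessel wall. It acts through receptor tyrosine kinases, ERK among their downstream kinases, and smooth muscle cells exposed to it are known to lose contractile gene expression and to divide, migrate and remake their matrix.

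After 24 h of PDGF, 33 of 36 mitosis genes, 20 of 37 DNA replication genes, 8 of 16 thin filament genes and 8 of 14 myosin genes had fallen on both deposited tables. In turn 18 of 33 lysosomal, 19 of 32 proteasome, 15 of 27 glycolysis, 7 of 12 basement membrane and 7 of 11 integrin genes had risen on both, against 14.9% of all genes that rose and 4.9% that fell. Some of these counts were lower when single libraries were left out, and this is given below for some of the lists only. The natriuretic peptide clearance receptor gene Npr3 showed the lowest difference of the genes named here, and the chemokine gene Ccl7 the highest apart from Rpl37, Mir31 and Mir3561, which were listed at 0 in both unstimulated libraries. Ankh and Mgp, genes that restrain calcification, were also among the 20 highest differences. The phosphate transporter gene Slc20a1 and the osteochondral factor gene Runx2 rose too.

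Levels are normalised FPKM, fragment counts scaled by transcript length and library size and then adjusted by the authors, and are given by library in the order of the column digits. Differences are PDGF 24 h minus 0 h on the log2(FPKM + 1) scale with the standard error of limma, a linear model fitted here over all 14 libraries, and they understate the change of genes with low values. A gene was called, and is said to have risen or fallen, at a Benjamini-Hochberg adjusted p under 0.05 over the 10133 genes tested. On the normalised table, genes that rose numbered 3823 (37.7%) and 491 (4.85%) fell. On the unnormalised scale, 1481 of 10001 genes (14.8%) rose and 1345 (13.4%) fell. The median difference of all genes tested was 0.41 on the normalised table and 0.00 on the unnormalised one, and 2342 genes rose only on the normalised table. Spike-in transcripts made up 2.78 and 2.53% of the unnormalised FPKM in the unstimulated libraries and 1.65, 1.86 and 1.88% in the PDGF 24 h libraries. In bulk RNA, fewer cells of a type and less RNA per cell cannot be told apart. List counts are therefore mostly given for calls that held on both tables, and some genes called on only 1 table are described as well. Over the 9968 genes tested in both, 1481 (14.9%) rose in both tables, and 488 (4.9%) fell in both. These shares are the background for every list count in both tables. Both tables scale the same libraries, so a call on both is no independent repeat. All 1481 genes that rose on the unnormalised table also rose on the normalised one, and 488 of the 491 that fell on the normalised table fell on both. Without unstimulated replicate 0, 2126 genes rose on the normalised table and 849 fell on the unnormalised one.

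**Figure D1:**
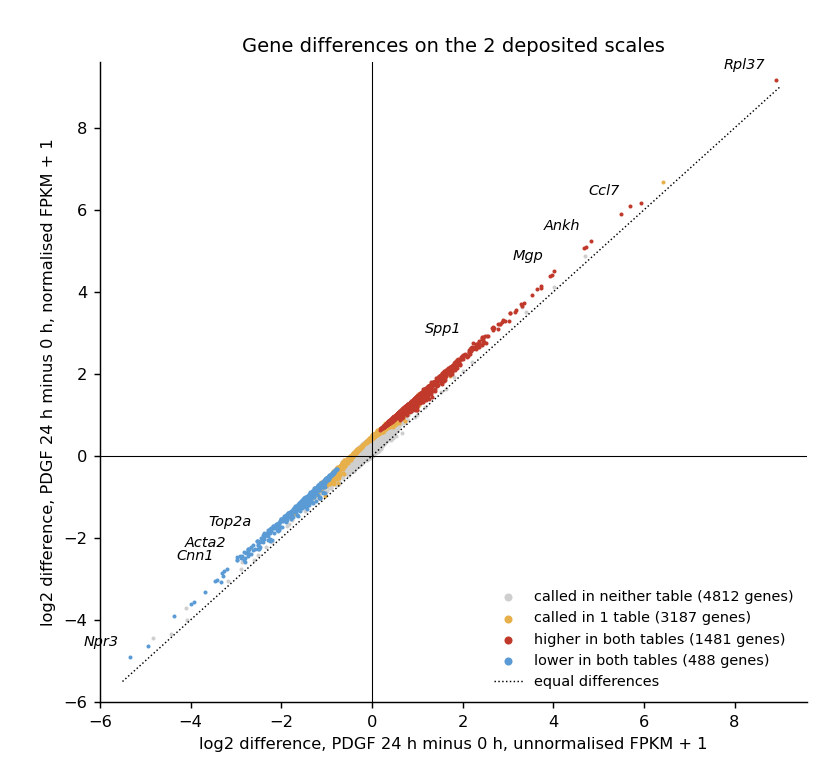
Each point is 1 of 9968 genes tested in both deposited tables, placed by its log2 difference (PDGF 24 h minus 0 h) on unnormalised FPKM + 1 (x axis) and on normalised FPKM + 1 (y axis), and coloured by its calls. The cloud lies above the dotted line of equal differences, and 1481 genes were higher and 488 lower in both tables.

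At least 2-fold differences among called genes numbered 1176 higher (11.6%) and 278 lower (2.74%) on the normalised table, and 460 (4.6%) and 495 (4.95%) on the unnormalised table. Between 10429 and 11503 genes were above 0 in a library, and the number of reads is unknown because the tables hold no counts. Spearman correlations of replicates across genes were 0.954 to 0.988, and genes are no independent replicates. The gene with the highest level held 1.68 and 1.61% of all unnormalised FPKM in the unstimulated libraries, where it was Eln, and 5.16, 5.27 and 5.31% with PDGF, where it was Spp1. The normalised table moved low values (under 1 FPKM) up by 0.40 and 0.42 (median log2) in the unstimulated libraries and by 1.30, 0.91 and 0.39 in the PDGF 24 h libraries. Values of a gene near 1 FPKM in PDGF 24 h replicates 0 and 1 therefore carry a larger adjustment than in the other 3 libraries.

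**Figure D2:**
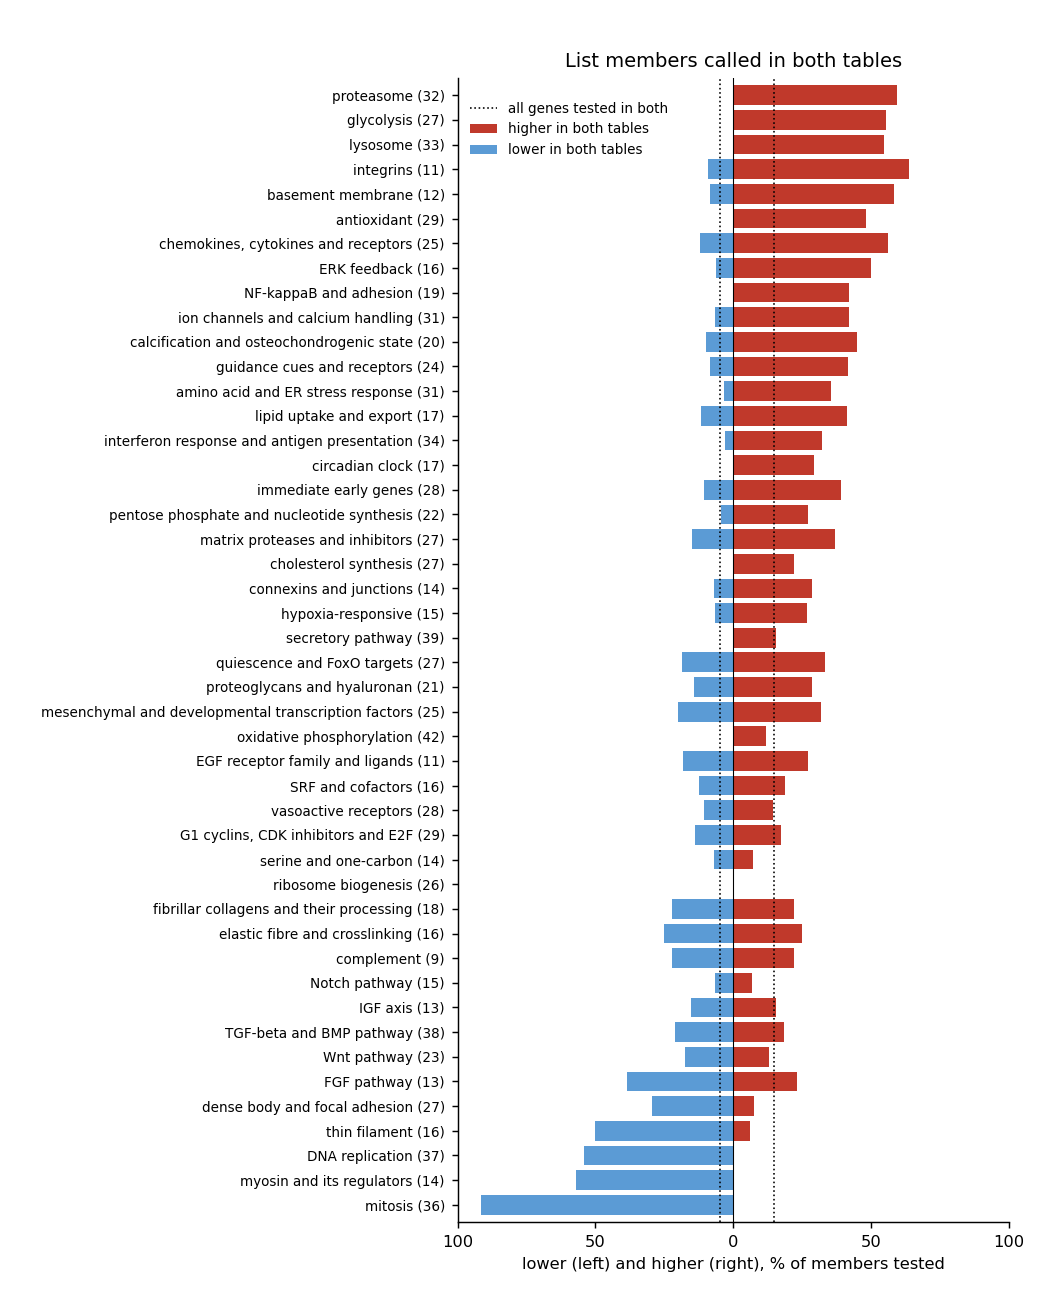
Bars give the share of tested members of each pathway or gene family list (number tested in brackets, marker lists, the BET list and the PDGF list not shown) that fell (left) or rose (right) in both tables, and the dotted lines the same shares over all genes, 4.9% and 14.9%. Of the lists shown, mitosis, myosin, DNA replication and thin filament extend furthest to the left, and integrins, proteasome and basement membrane furthest to the right.

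Many actin filament genes of smooth muscle fell. Of 16 thin filament genes tested, 8 fell and 1 rose in both tables (background 4.9% and 14.9%). On the normalised table alone 8 fell and 3 rose, 13 fell and 1 rose on the unnormalised table, and the median difference was -0.57 and -1.01. Acta2, which encodes smooth muscle actin, stood at 4814 and 5688 in the unstimulated libraries and at 967, 1019 and 849.5 with PDGF (difference -2.47 ± 0.18, limma adjusted p = 8.34e-08). Tagln, which encodes the actin cross-linker transgelin, stood at 3598 and 4491 before and 797, 829 and 771 after. Both genes remained among the abundant transcripts of the PDGF libraries, and no PDGF library reached an unstimulated value. Cnn1, the calponin gene, went from 282 and 358 to 45.8, 47.1 and 42.4 (-2.79 ± 0.19, limma adjusted p = 4.64e-08). Actg2, the enteric smooth muscle actin gene, went from 7.64 and 8.13 to 0.468, 1.21 and 0.476, near the low end of detection. Lmod1, which encodes an actin filament nucleator, fell by 1.91 and, chosen after their values were seen, Cald1 (caldesmon), Tpm2 and Tpm1 (tropomyosins) fell, with differences of -1.53, -0.77 and -0.70. The 3 members that rose on the normalised table were Tpm3, Cnn3 and Tagln2, forms that non-muscle cells also express, and of these only Tpm3 rose on the unnormalised table as well. Without PDGF 24 h replicate 0, without replicate 2 or without unstimulated replicate 1, Tpm3 was not called in both tables.

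Myosin and dense body genes moved less evenly. Of 14 genes of myosin and its regulators, 8 fell in both tables, with a median difference of -0.49 on the normalised and -0.96 on the unnormalised table. Myl9, the regulatory light chain gene of smooth muscle myosin, went from 945 and 1134 to 192, 198 and 181 (-2.44 ± 0.15, limma adjusted p = 1.14e-08). Myh11, which encodes the heavy chain of that myosin, was low from the start, at 5.12 and 5.61, and stood at 2.37, 1.96 and 1.41 with PDGF (-1.14 ± 0.26). The other 6, among them Mylk, the myosin light chain kinase gene, at 8.87 and 10.3 before and 4.47, 5.63 and 5.53 after, fell by 0.77 or less. Their calls rested on single libraries: only 2 of the 14 fell in both tables without unstimulated replicate 1, and 5 without unstimulated replicate 0, PDGF replicate 0 or PDGF replicate 2. Rhoa and Myl12b rose on the normalised table only. Of 27 dense body and focal adhesion genes tested, 8 fell and 2 rose in both tables, and 4 fell without unstimulated replicate 1. Nexn (nexilin), an actin-binding protein of the dense body, went from 114 and 129.7 to 44.6, 47.3 and 46.4. Csrp2, which encodes a LIM protein of smooth muscle, went from 30.2 and 42.8 to 18.1, 17.7 and 12.6. The intermediate filament gene Synm rose from 1.4 and 1.11 to 6.19, 4.95 and 4.81 and the LIM protein gene Fhl2 from 54.4 and 52.8 to 134, 114 and 107, so that neither shared the direction of the actin genes.

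Myocd, the gene of the SRF coactivator myocardin, fell, whereas the gene of SRF itself did not pass the test. Myocd stood at 5.52 and 5.16 before and 2.3, 1.41 and 1.03 after (-1.33 ± 0.30, limma adjusted p = 0.00254). Srf stood at 20.3 and 22.9 before and 23.5, 25.6 and 27 after (0.22 ± 0.16, limma adjusted p = 0.26 on the normalised table and 0.257 on the unnormalised table). Klf4, a repressor of contractile genes, stood at 9.53 and 7.83 before and 15.2, 11.3 and 10.2 after, a call on the normalised table (0.44 ± 0.17) that the unnormalised table did not share (limma adjusted p = 0.919). Leaving out any library other than PDGF replicate 2 also ended it. Elk3, which encodes an ETS factor that binds SRF, rose from 14.1 and 13 to 46.7, 38.9 and 47.2, and Prkg1, the cyclic GMP-dependent kinase gene, from 6.16 and 12.9 to 29.3, 24.6 and 27.8. In all, 3 of 16 SRF and cofactor genes rose and 2 fell in both tables (background 14.9% and 4.9%). Without unstimulated replicate 0 these counts were 1 and 1, and 1 fell without unstimulated replicate 1 or PDGF replicate 0.

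The 20 lowest differences held 6 genes best known from striated muscle, a grouping made after the values were seen and with no list of its own. Not all such genes fell: Ryr2, the cardiac calcium release channel gene, rose by 2.03, Casq1, the skeletal calsequestrin gene, rose by 1.39 on the normalised table only, and Csrp3 (0.17) and Ankrd2 (0.47) were not called. Tnnc1, the troponin C gene of heart and slow skeletal muscle, went from 252 and 253 to 11.2, 19.1 and 18.6 (-3.91 ± 0.28, limma adjusted p = 6.84e-08). Acta1, the skeletal muscle actin gene, went from 25.5 and 25.5 to 4.82, 3.28 and 3.28. The 2 groups' ranges did not overlap in either gene. The fast skeletal myosin genes Myh1 and Myh2 fell from 37.9 and 39.3 to 3.58, 2.12 and 1.45 and from 10.6 and 12.2 to 0.414, 0.707 and 0.293, and since these paralogs are near-identical their single values are uncertain. Mybphl, of the myosin-binding protein family, and Hopx, a cardiac homeodomain cofactor, fell, with differences of -2.59 and -2.93. Pln, which encodes the calcium pump inhibitor phospholamban, went from 14 and 11 to 1.57, 3.15 and 0.94, and Casq2, the cardiac calsequestrin gene, singled out after its values were seen, from 105 and 116 to 22.5, 20.7 and 22.6. Lims2, a focal adhesion adaptor gene also among the 20 lowest, went from 65.6 and 81.2 to 6.84, 13.4 and 8.31.

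**Figure D3:**
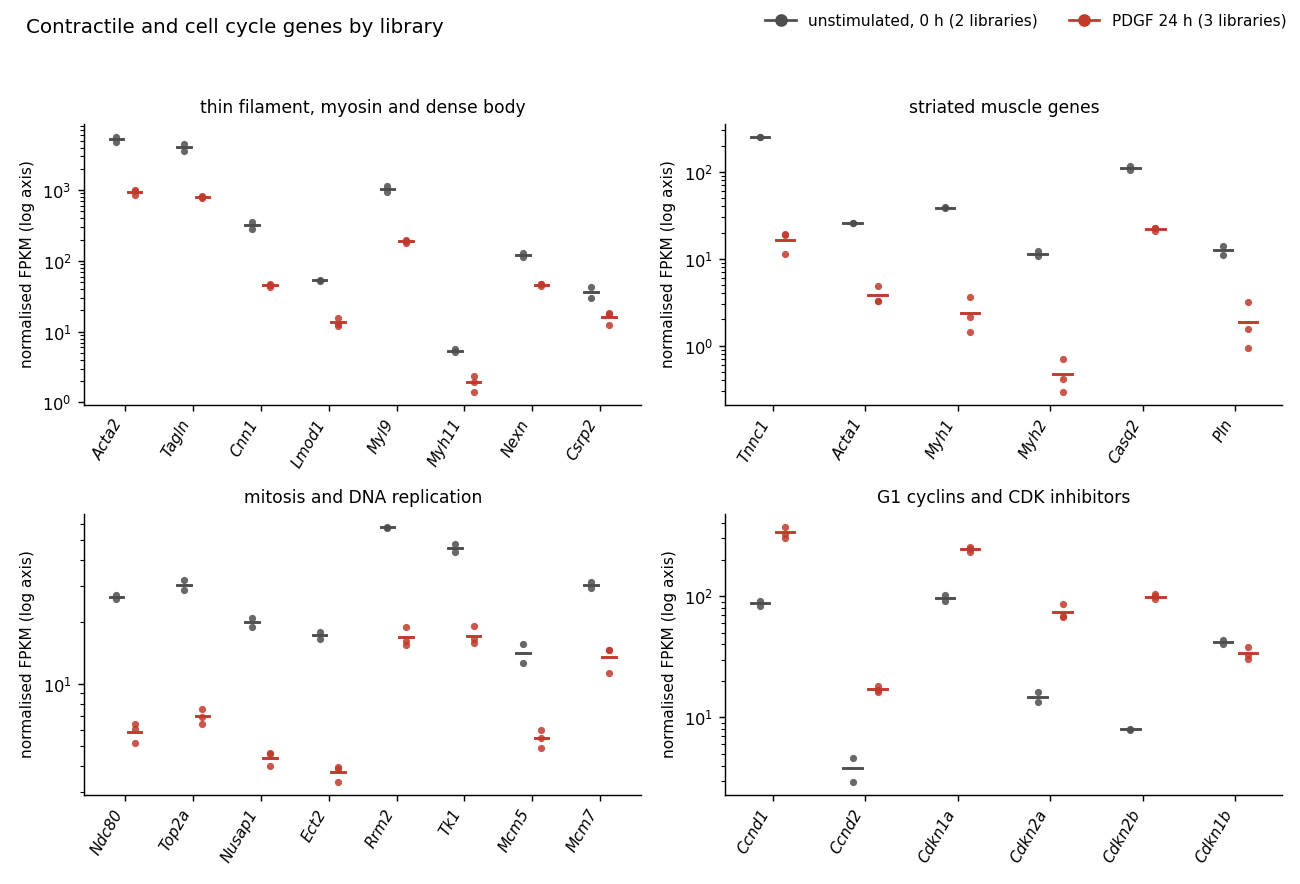
Points are normalised FPKM of single libraries on a log axis and short lines are group means, for unstimulated (grey, 2 libraries) and PDGF 24 h cells (red, 3 libraries). Smooth and striated muscle genes, mitosis genes and DNA replication genes lie lower with PDGF without overlap, while Ccnd1, Ccnd2, Cdkn1a, Cdkn2a and Cdkn2b lie higher and Cdkn1b slightly lower.

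Mitosis genes were lower in nearly every case. Of 36 mitosis genes tested, 33 fell in both tables, and the other 3 (Ccnb2, Cdc25c and Cdc25b) fell only on the unnormalised table. The median difference was -1.41 on the normalised and -1.83 on the unnormalised table, and between 31 and 34 fell in both tables when any 1 library was left out. Ndc80, a kinetochore subunit gene, went from 25.9 and 27.2 to 6.04, 5.17 and 6.36 (-2.01 ± 0.26, limma adjusted p = 2.38e-05). Top2a, the topoisomerase II gene, went from 28.5 and 32.1 to 6.94, 6.4 and 7.56 (-1.97 ± 0.21). Nusap1, a spindle protein gene, and Ect2, which encodes a guanine nucleotide exchange factor of cytokinesis, fell from 20.8 and 19 to 4.0, 4.56 and 4.6 and from 18 and 16.5 to 3.34, 3.93 and 3.88. The groups did not overlap in any of these 4 genes.

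The window from 250 bases before to 50 after the start of 30 of these genes was found in RefSeq promoters (rat build GRCr8) and searched on both strands, with no test. The cell cycle homology element, TTTGAA, which a repressor complex of resting cells is known to bind, was in 22 of 30 (73.3%), against 849 of 7735 promoters of genes tested here (10.98%). A CCAAT box was likewise in 22 of 30 (73.3%) against 38.2%, and both motifs together in 18 (60%) against 4.56%. Of the 22 genes with TTTGAA, Ccnb2 and Cdc25c were not called on the normalised table. A match is a run of letters and does not show that a factor binds there. The 120 bases before the start are printed for 6 of them to show how near the start the element lies, with TTTGAA or its reverse complement in capitals. They were chosen after their values were seen. The windows are chr20:19265173-19265292 (plus strand) for Cdk1, chr10:84473094-84473213 (minus) for Top2a, chr8:79981659-79981778 (minus) for Ccnb2, chr1:143659361-143659480 (plus) for Prc1, chr5:137255800-137255919 (minus) for Cdc20 and chr17:13727520-13727639 (minus) for Cks2.
Cdk1: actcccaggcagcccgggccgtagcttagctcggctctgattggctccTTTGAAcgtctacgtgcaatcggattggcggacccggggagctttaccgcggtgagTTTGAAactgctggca
Top2a: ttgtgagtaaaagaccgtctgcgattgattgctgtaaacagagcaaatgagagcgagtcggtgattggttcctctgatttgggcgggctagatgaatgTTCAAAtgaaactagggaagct
Ccnb2: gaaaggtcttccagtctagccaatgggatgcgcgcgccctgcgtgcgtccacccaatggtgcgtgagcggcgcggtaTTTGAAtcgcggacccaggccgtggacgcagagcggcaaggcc
Prc1: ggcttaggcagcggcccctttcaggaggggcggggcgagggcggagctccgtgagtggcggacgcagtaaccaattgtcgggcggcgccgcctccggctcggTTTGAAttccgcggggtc
Cdc20: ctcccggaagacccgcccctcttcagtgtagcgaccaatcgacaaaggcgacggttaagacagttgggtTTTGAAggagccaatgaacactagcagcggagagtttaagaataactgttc
Cks2: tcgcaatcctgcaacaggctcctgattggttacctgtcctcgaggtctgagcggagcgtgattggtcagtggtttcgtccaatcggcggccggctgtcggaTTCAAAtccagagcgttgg
The element nearest the start ends 10 bases before it in Cdk1, 16 in Top2a, 12 in Prc1 and 13 in Cks2, and 37 and 45 bases before it in Ccnb2 and Cdc20. Cdk1, the mitotic kinase gene, stood at 76.1 and 78.8 before and 32.3, 22 and 24.4 after PDGF. Ccnb2, whose window holds the element too, stood at 13.1 and 8.67 before and 9.11, 5.95 and 4.04 after (-0.72 ± 0.35, limma adjusted p = 0.107), and its lowest unstimulated value lay below its highest PDGF value.

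DNA replication genes fell less uniformly. Of 37 tested, 20 fell in both tables and 31 on the unnormalised table, with medians of -0.67 and -1.06. The count in both tables was 11 without unstimulated replicate 1, 12 without unstimulated replicate 0 and 13 without PDGF replicate 2. Rrm2 and Rrm1, the subunit genes of ribonucleotide reductase, which makes deoxynucleotides, went from 57.1 and 58.2 to 19, 15.4 and 16.3 and from 40.1 and 46.8 to 18.5, 16.5 and 16. Tk1, the thymidine kinase gene of S phase, went from 43.8 and 48.2 to 19.2, 15.8 and 16.6 (-1.37 ± 0.16, limma adjusted p = 1.13e-05). Other members showed no fall on the normalised table: Tyms, the thymidylate synthase gene, and Mcm2 differed by -0.09 and -0.18, and both fell only on the unnormalised table. An E2F site, taken as TTTCCCGC, TTTCGCGC, TTTGCCGC or TTTGGCGC, was in 16 of 31 promoters of this list (51.6%) against 4.09% of promoters of genes tested. Of these 16 genes, 7 were not called on the normalised table (Lig1, Mcm2, Dnmt1, Tyms, Pole, Gins3 and Pola1). For 3 that fell, chosen after their values were seen, the 120 bases before the start are shown with the site in capitals, in the windows chr19:13488693-13488812 (plus) for Mcm5, chr12:22163179-22163298 (minus) for Mcm7 and chr3:160184800-160184919 (plus) for Gins1, where matches on both strands overlap.
Mcm5: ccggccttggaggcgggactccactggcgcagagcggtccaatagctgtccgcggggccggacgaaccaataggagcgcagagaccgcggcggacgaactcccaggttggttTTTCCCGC
Mcm7: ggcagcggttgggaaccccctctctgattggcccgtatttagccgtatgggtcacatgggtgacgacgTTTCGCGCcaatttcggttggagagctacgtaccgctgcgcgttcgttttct
Gins1: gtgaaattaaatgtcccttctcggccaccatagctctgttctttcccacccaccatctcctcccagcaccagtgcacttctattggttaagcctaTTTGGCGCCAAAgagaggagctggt
Mcm5 and Mcm7 encode subunits of the replicative helicase, and Gins1 a subunit of its GINS partner. Mcm5 stood at 12.7 and 15.7 before and 6.0, 5.45 and 4.88 after PDGF, and Mcm7 at 29.2 and 31.4 before and 14.7, 14.7 and 11.3 after. Gins1 went from 6.23 and 9.72 to 1.22, 2.36 and 1.62, and its call was lost without unstimulated replicate 1 or PDGF replicate 0.

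The regulators of G1 pointed both ways, with 5 of 29 genes higher and 4 lower in both tables (background 14.9% and 4.9%). The share of risers was thus near that over all genes. Both D-type cyclin genes named by the rule rose, Ccnd1 from 83.5 and 91 to 328, 305 and 375 (1.93 ± 0.13, limma adjusted p = 4.19e-08) and Ccnd2 from 2.94 and 4.66 to 16.2, 18.2 and 16.7. Ccnd3, another D-type cyclin gene, rose on the normalised table only (0.42, against -0.03 on the unnormalised table). Genes of some inhibitors of the cyclins' partner kinases rose as well. Cdkn2b, which encodes the CDK4 and CDK6 inhibitor p15, went from 7.91 and 8.01 to 100.1, 93.9 and 104 (3.48 ± 0.15, limma adjusted p = 2.54e-10), and Cdkn2a, which shares its locus, from 13.4 and 16.1 to 86, 67.9 and 69.2. Cdkn1a, the p21 gene, singled out after its values were seen, went from 90.8 and 103 to 255, 233 and 247. The 5 genes that rose were 2 cyclins and 3 inhibitors. Cdkn1b, the p27 gene, shown after its values were seen, stood at 40.5 and 43.5 before and 30.5, 37.9 and 32.7 after, a fall on the unnormalised table only. The inhibitor gene Cdkn2c likewise fell only there (-1.02, against -0.60 on the normalised table). Cdkn1c was called on neither table (0.21 on the normalised table). Cdk2, E2f1, Mxd1 and Myc fell, with differences of -0.83, -0.83, -0.64 and -0.55, and fewer of them did so in both tables when either unstimulated library was left out (1 without replicate 1, 2 without replicate 0).

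Promoters of the contractile lists were searched for the element that SRF binds. This CArG box was in 1 of 13 thin filament promoters, 0 of 12 myosin promoters and 4 of 21 dense body promoters, against 1.22% of promoters of genes tested. The thin filament match was Actg1, a cytoplasmic actin gene that did not pass on the normalised table. Of the dense body matches Fhl2 rose, Fhl1 fell, and Ldb3 and Svil were not called. No match says only that these letters are not in the window. Acta1 is outside these lists and was chosen after its values were seen, with no search of the 20 lowest as a set. It is printed as a gene of the 20 lowest whose 120 bases (chr19:68784195-68784314, minus strand) hold the element in capitals.
Acta1: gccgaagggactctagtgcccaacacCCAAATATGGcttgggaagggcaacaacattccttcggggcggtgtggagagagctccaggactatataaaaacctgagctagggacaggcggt
The element ends 84 bases before the start of Acta1, whose values are given above.

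The PDGF receptor genes were higher than before stimulation, although only 1 held on both tables. Pdgfra stood at 9.22 and 9.7 before and 21.8, 25 and 25.3 after (1.26 ± 0.23, limma adjusted p = 0.000474), and it rose on both. Pdgfrb, the main PDGF receptor of these cells by level per transcript length, stood at 324 and 383 before and 549.6, 524 and 534 after. It rose on the normalised table (0.60 ± 0.14) but not on the unnormalised one (limma adjusted p = 0.181), and not without unstimulated replicate 0. Among the ligands, Pdgfa rose from 44.5 and 45.5 to 118, 112 and 134 (1.41 ± 0.14). Pdgfb stood at 11.6 and 15.6 before and 11, 7.91 and 8.5 after, a fall on the unnormalised table only. Pdgfc, at 13.8 and 6.64 before and 18.8, 19.4 and 18.4 after, and Pdgfd, at 3.97 and 7.7 before and 9.34, 5.8 and 6.65 after, passed on neither table. Pdgfrl, a receptor-like gene, stood at 32.9 and 32.4 before and 36.3, 29.3 and 36.5 after and changed sign between tables (0.05 and -0.39).

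Of 16 genes that restrain ERK signalling, 8 rose and 1 fell in both tables. Rasa1, which encodes a GTPase-activating protein for Ras, went from 19.8 and 22.7 to 139.6, 112 and 147 (2.58 ± 0.18, limma adjusted p = 5.27e-08). Spred3 and Dusp6, inhibitors of Raf activation and of ERK itself, went from 1.79 and 2.58 to 16.2, 12.9 and 12.6 and from 7.82 and 7.04 to 29.1, 30.7 and 42.2. Errfi1, which encodes an inhibitor of the EGF receptor, went from 3.22 and 2.22 to 16.2, 12.5 and 14.3. The 1 gene that fell, Dusp1, did so by 0.50 and not without unstimulated replicate 1, PDGF replicate 1 or PDGF replicate 2. Of 28 immediate early genes, 11 were higher and 3 lower in both tables (background 14.9% and 4.9%). The AP-1 subunit genes Fosl1 and Jun rose from 5.36 and 1.96 to 28.9, 22.1 and 31.4 and from 11.6 and 10.2 to 59.9, 56.3 and 56.8. Egr1 went from 14.6 and 14.8 to 52.8, 42.6 and 57 and Ier3 from 32.1 and 30.9 to 109, 104 and 122. Their unstimulated and PDGF values did not overlap.

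Genes of the interstitial matrix moved in both directions. Of 18 genes of fibrillar collagens and their processing, 4 rose and 4 fell in both tables (background 14.9% and 4.9%). The counts were 9 and 4 on the normalised and 4 and 5 on the unnormalised table. Col1a1, the type I collagen chain gene, rose from 1752 and 2079 to 6205, 5818 and 5804 (1.64 ± 0.18, limma adjusted p = 4.52e-06). Col3a1 stood at 703 and 750.4 before and 1194, 1337 and 1131 after, a rise on the normalised table only. Col11a1 and Col14a1, a minor fibrillar chain and a fibril-associated collagen, fell from 64 and 66.3 to 14, 16.4 and 13.9 and from 31.2 and 35.2 to 10.3, 9.64 and 9.49. P4ha3, which encodes a collagen prolyl hydroxylase subunit, fell from 209 and 225 to 52.9, 46 and 44.1. Each of these 3 lay lower in all PDGF libraries.

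Elastin, the extensible fibre of the aortic wall, moved opposite to type I collagen. Eln was at 8144 and 9576 before PDGF and 2433, 2380.4 and 2384 after (-1.88 ± 0.20, limma adjusted p = 4.07e-06). Mfap5, a microfibril gene, was low and went from 1.22 and 5.22 to 0.193, 0.737 and 0.191, a call lost without unstimulated replicate 1. Fbln5 and Lox, which organise and crosslink elastin, singled out after their values were seen, fell from 986 and 1240.3 to 508, 523 and 496 and from 271 and 349 to 147, 151 and 153. The related oxidase gene Loxl4 rose from 2.35 and 2.08 to 12.8, 11.1 and 12.4, and Ltbp1, which stores latent TGF-beta in matrix, from 21.1 and 24.6 to 55.7, 55.5 and 57.9. Of 16 genes of the list, 4 rose and 4 fell in both tables (background 14.9% and 4.9%).

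Most of the basement membrane genes that could be tested rose. The list held 22 genes, of which 13 were analysed here and 12 tested. Of these 12, 7 rose and 1 fell in both tables, and 6 rose without PDGF replicate 0 or PDGF replicate 2. The genes that were not analysed could change this share. Col18a1, whose collagen carries the endostatin fragment, went from 152 and 166 to 1467, 1321 and 1429 (3.14 ± 0.16, limma adjusted p = 1.59e-09). Col15a1 went from 0.0947 and 0.11 to 4.6, 4.19 and 3.08, and Lama4, a laminin chain gene of vessels, from 4.17 and 3.75 to 18.3, 16.8 and 19.6. The 1 gene that fell, Col4a1, did so by 0.57 and not without unstimulated replicate 1. Vcan, the large proteoglycan versican, rose from 9.73 and 10.9 to 78.7, 75 and 80.9 (2.81 ± 0.16, limma adjusted p = 7.57e-09). Has2, a hyaluronan synthase gene, went from 0.0969 and 0.09 to 4.54, 3.45 and 3.69 and was listed at 0 in both unstimulated libraries of the unnormalised table. Cd44, the hyaluronan receptor gene, went from 19.9 and 27.1 to 95.5, 88 and 111. These were among 6 of 21 proteoglycan and hyaluronan genes that rose in both tables, with 3 that fell.

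Integrin genes formed the list with the highest share of risers in the plot of list members, 7 of 11 in both tables. Itga7, a laminin receptor chain of muscle, rose from 43.1 and 51.3 to 372, 343 and 367 (2.91 ± 0.16, limma adjusted p = 4.52e-09). Itgb5 and Itga5, chains of vitronectin and fibronectin receptors, went from 80.8 and 85.3 to 369, 314 and 341 and from 32 and 31.1 to 94.3, 89.1 and 99.9. Itgb8 was lower in level, at 1.42 and 1.04 before and 5.79, 3.69 and 4.4 after. Without PDGF replicate 2 or either unstimulated library 5 integrin genes rose in both tables. The 1 gene that fell, Itga11, was called in both tables only with all libraries or without PDGF replicate 1.

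Genes that hold back or accompany calcification of the vessel wall included 9 of 20 that rose and 2 that fell in both tables. Ankh, which encodes an exporter of the calcification inhibitor pyrophosphate, went from 6.91 and 6.86 to 336, 244 and 329.9 (5.26 ± 0.18, limma adjusted p = 1.84e-11). Mgp, the matrix Gla protein gene, went from 676 and 641 to 16265, 14114 and 14579.9 (4.50 ± 0.15, limma adjusted p = 1.19e-11). Enpp1, which makes pyrophosphate outside the cell, went from 10.2 and 13.4 to 61.9, 48.5 and 62.2. Spp1, the osteopontin gene, stood at 5522 and 6852 before and 44117, 39606 and 40209 after (2.75 ± 0.20), the highest level of any gene in the PDGF libraries. The phosphate transporter gene Slc20a1 and the osteochondral factor gene Runx2, singled out after their values were seen, rose from 27.2 and 31.6 to 77.5, 68.8 and 97.3 and from 1.09 and 0.883 to 5.59, 5.34 and 5.9. Bmp4, a bone morphogenetic ligand gene and 1 of the 2 that fell, went from 106 and 129 to 38.4, 39.1 and 39.7.

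**Figure D4:**
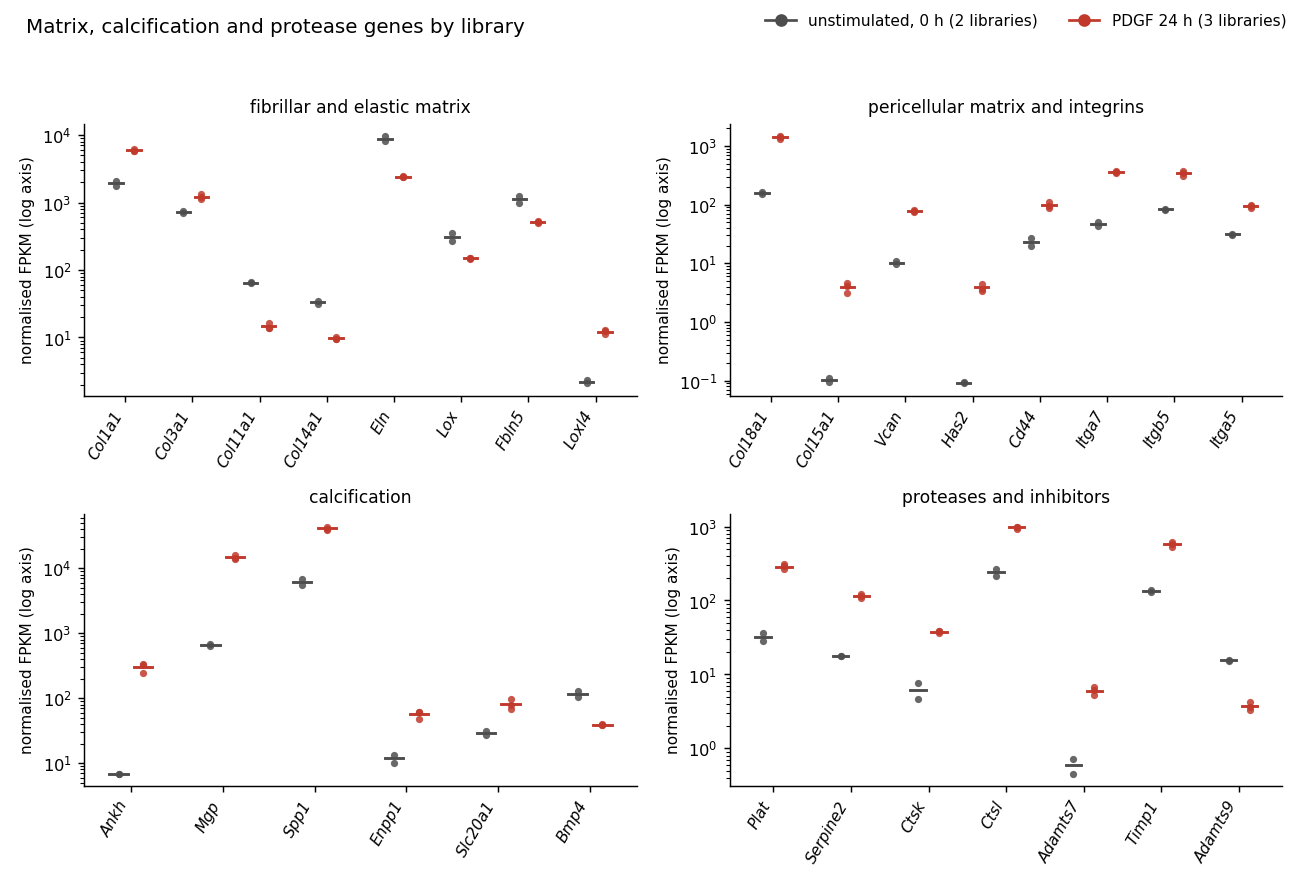
Points are normalised FPKM of single libraries on a log axis and short lines are group means, for unstimulated (grey, 2 libraries) and PDGF 24 h cells (red, 3 libraries). Eln, Lox, Fbln5, Col11a1, Col14a1, Bmp4 and Adamts9 lie lower with PDGF, and the other genes shown lie higher.

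Proteases and their inhibitors rose side by side, with 10 of 27 genes higher and 4 lower in both tables. Plat, the tissue plasminogen activator gene, went from 36.3 and 28.7 to 291, 265 and 307 (3.12 ± 0.13, limma adjusted p = 1.62e-10), and Serpine2, a secreted inhibitor of that class of protease, from 17.6 and 17.6 to 121, 107 and 115. Ctsk, the cathepsin K gene, went from 4.66 and 7.76 to 38.3, 36.8 and 38.2 and Adamts7, which encodes a metalloprotease that cleaves cartilage oligomeric matrix protein, from 0.454 and 0.729 to 6.69, 6.11 and 5.22. The inhibitor gene Timp1 and the protease gene Adamts9, chosen after their values were seen, moved in opposite directions, by 2.11 and -1.83.

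Growth factor genes moved in both directions. In the TGF-beta and BMP list 7 of 38 genes rose and 8 fell in both tables (background 14.9% and 4.9%), and 4 rose without unstimulated replicate 0. Tgfb1 rose from 67.7 and 73.2 to 319, 268 and 301 (2.05 ± 0.15, limma adjusted p = 6.64e-08). Tgfb2 and Tgfb3 fell from 149.9 and 167 to 66.9, 65.5 and 68.5 and from 375 and 440.3 to 99.1, 91.6 and 98.3, so that the 3 TGF-beta ligand genes did not share a direction. Fst, the activin antagonist follistatin, rose from 6.5 and 3.37 to 19.2, 26.1 and 29.5, and Id2, a target of BMP signalling, fell from 20.3 and 15.9 to 0.96, 5.62 and 2.82. In the FGF list 5 of 13 genes fell. Fgf18 went from 65.8 and 98.5 to 0.194, 4.82 and 4.03 (-4.64 ± 0.57, limma adjusted p = 1.65e-05), with the first PDGF library, listed at 0 on the unnormalised table, below the other 2. The receptor genes Fgfr2 and Fgfr3 went from 18.9 and 17.1 to 2.96, 3.7 and 3.73 and from 42.6 and 45.1 to 8.54, 6.81 and 7.98, and Sulf1, whose enzyme trims the heparan sulfate that FGF receptors use, from 151 and 173 to 55.9, 52.2 and 56.4. A further 3 FGF pathway genes rose in both tables, calls that were all lost without unstimulated replicate 0.

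Wnt, Notch and IGF genes included both directions. The secreted Wnt antagonist genes Sfrp4 and Sfrp2 rose from 0.908 and 0.836 to 21.3, 19.97 and 21.7 and from 6.17 and 7.26 to 51.6, 63.6 and 42.5. Nkd2, an intracellular Wnt inhibitor gene, fell from 75.3 and 80.7 to 10.5, 11.1 and 10.2 (-2.76 ± 0.15, limma adjusted p = 4.52e-09), and the matricellular gene Wisp1 rose from 13.4 and 15.8 to 70.6, 64.3 and 74. In all 3 of 23 Wnt genes rose and 4 fell in both tables, against 14.9% and 4.9% over all genes. Wnt genes that rose were thus no more frequent than among all genes. Jag1, the Notch ligand gene of smooth muscle, fell from 60.6 and 64.9 to 27.4, 28.9 and 25.4 and Notch1 rose from 2.65 and 2.38 to 9.38, 8.03 and 9.11, the only called members of 15 in both tables. The share of Notch genes that rose was thus below the 14.9% over all genes. Notch3, the receptor typical of arterial smooth muscle, stood at 24.3 and 27.8 before and 22.3, 20.8 and 19.7 after, a fall on the unnormalised table only. Htra1, a protease that cleaves IGF-binding proteins, rose from 296 and 322 to 1374, 1232 and 1271, and Igfbp2 fell from 519 and 616 to 202, 168 and 168. Igfbp5, another binding protein gene, was below the filter and listed at 0 in 4 of the 5 libraries of the unnormalised table.

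Genes of cell contact and guidance are given beside the background of 14.9% higher and 4.9% lower in both tables. Gja4, the connexin 37 gene, stood at 2.73 and 2.61 before and 133, 119 and 116 after (5.07 ± 0.17, limma adjusted p = 1.31e-11). Gja1, the main connexin gene by level per transcript length, stood at 194 and 219.6 before and 318, 327 and 348 after, and Gja5 at 0.101 and 0.169 before and 3.16, 1.66 and 1.14 after. Jup, which encodes the junction protein plakoglobin, rose from 54.7 and 61.2 to 185, 170.2 and 156. Of 14 genes of connexins and junctions 4 rose and 1 fell in both tables, the fall not without PDGF replicate 1. Among guidance cues and receptors 10 of 24 rose and 2 fell, but 5 rose and 1 fell without unstimulated replicate 0. The ephrin gene Efna1 went from 0.177 and 0.674 to 9.05, 8.17 and 6.68 and Nrp1, a co-receptor for semaphorins and VEGF, from 21.2 and 26.8 to 62, 58.3 and 67.3. Hbegf, an EGF receptor ligand gene, fell from 53.5 and 56 to 21.3, 20.4 and 25.4, while Egfr rose from 3.58 and 4.91 to 11.7, 11.2 and 10.5. Nrg1, the gene of the ErbB ligand neuregulin 1, fell from 10.1 and 18.4 to 6.58, 7.24 and 4.57, a call lost without unstimulated replicate 1.

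Npr3, whose receptor clears natriuretic peptides that relax vessels, went from 158 and 186 to 5.25, 5.17 and 3.88 (-4.91 ± 0.17, limma adjusted p = 2.11e-11), the lowest difference named, and its difference on the unnormalised table was -5.33 ± 0.12. No PDGF library came near an unstimulated one. The purinergic receptor gene P2ry1 rose from 0.823 and 0.801 to 8.39, 7.0 and 9.84 and Ramp1, a subunit of calcitonin-family receptors, from 1.39 and 1.1 to 15.4, 8.01 and 7.98. In that list 4 of 28 genes rose and 3 fell in both tables, shares near or above background of 14.9% and 4.9%. The count of risers was 2 without unstimulated replicate 1, PDGF replicate 0 or PDGF replicate 1. Edn1, the gene of the vasoconstrictor endothelin 1, outside the list, fell from 51.6 and 60.3 to 10.1, 5.89 and 3.29 (-3.04 ± 0.33).

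Of 31 ion channel and calcium handling genes 13 rose and 2 fell in both tables. Ano1, a calcium-activated chloride channel gene, went from 5.24 and 5.89 to 124, 98.7 and 123 (4.14 ± 0.18, limma adjusted p = 2.72e-10). Kcnn4, the calcium-activated potassium channel gene of proliferating smooth muscle, went from 7.91 and 7.23 to 158, 126 and 147 (4.07 ± 0.23). Trpv2, a cation channel gene, went from 5.06 and 3.82 to 46.3, 35 and 39.2. The 2 that fell were the sarcoplasmic reticulum genes Pln and Casq2 described above.

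Inflammatory mediator genes rose, led by monocyte chemokines. Of 25 genes of chemokines, cytokines and their receptors, 14 rose and 3 fell in both tables, with a median difference of 1.33 on the normalised and 1.0 on the unnormalised table. Ccl7 and Ccl2, ligands of the monocyte receptor CCR2, went from 2.59 and 3.73 to 261, 246 and 342 and from 1.94 and 2.19 to 96.4, 89.1 and 130.1 (6.09 ± 0.20, limma adjusted p = 1.19e-11, and 5.10 ± 0.20, limma adjusted p = 1.01e-10). Il1rn, the interleukin 1 receptor antagonist gene, went from 0.87 and 0.958 to 32.7, 31.2 and 31.9. Ackr3, a scavenger receptor for CXCL12, fell from 83.8 and 101 to 16.9, 24.3 and 14.7, and the gene of that ligand, Cxcl12, singled out after its values were seen, from 1098 and 1261 to 229.7, 307 and 209. In the NF-kappaB and adhesion list 8 of 19 rose in both tables, and 5 without unstimulated replicate 0. Ptgs2, the inducible cyclooxygenase gene, went from 3.46 and 2.29 to 13.6, 14.2 and 21.1, Tlr2, a receptor gene for bacterial lipoproteins, from 1.26 and 1.62 to 9.57, 5.37 and 4.11, and Vcam1, an adhesion molecule gene, stood at 1.38 and 1.26 before and 1.38, 1.61 and 0.739 after (limma adjusted p = 0.87).

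Interferon-response and antigen presentation genes rose in part, 11 of 34 in both tables with 1 lower. When any 1 PDGF library was left out 9 rose, and the fall was called only when that library was PDGF replicate 1. The guanylate-binding protein gene Gbp2 went from 3.94 and 3.08 to 26.6, 26 and 23.7 and Tap1, a peptide transporter gene, from 7.29 and 6.74 to 28.2, 26.3 and 25.5. Clu, the extracellular chaperone clusterin, rose from 109 and 131 to 622, 569 and 592 (2.30 ± 0.14), while C1s, a complement protease gene, fell from 23.5 and 24.7 to 11.5, 13.2 and 9.4. The summed unnormalised FPKM of 13 leukocyte markers was 13.8 and 18.3 in unstimulated libraries and 53.1, 41.9 and 37.8 with PDGF, and its part in these results was not tested. Of these 13, Ptprc, Cd3e, Adgre1, Lyz2, Tyrobp and Cd52 were listed at 0 in all 5 libraries. Cd14, a coreceptor for lipopolysaccharide that smooth muscle cells can also express, was the 1 marker of 2 tested that rose. It stood at 12.8 and 16.6 normalised FPKM before and 72.2, 52.6 and 48.9 after. In normalised FPKM the 13 markers summed to 14.8 and 19.5 before and 74.0, 55.8 and 51.6 after, so Cd14 alone made up most of each sum.

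Lysosomal and proteasomal genes included many that rose. Of 33 lysosomal genes tested, 30 rose on the normalised table and 18 in both tables, with a median difference of 0.85 and 0.42 against 0.41 and 0.00 over all genes. Ctsl and Ctsb, cathepsin genes, went from 215 and 265 to 999, 919 and 995 and from 288 and 308 to 1068, 1016 and 1024 (2.02 ± 0.14, limma adjusted p = 3.89e-08, and 1.79 ± 0.13). Atp6v1b2, a subunit gene of the proton pump that acidifies lysosomes, went from 24.5 and 20.4 to 77, 60.8 and 65.3. Of 32 proteasome genes, 31 rose on the normalised table and 19 in both tables, 12 without unstimulated replicate 1. Their differences were small, with a median of 0.80 on the normalised and 0.34 on the unnormalised table. Psmb3 of the core particle went from 109.8 and 107 to 259, 216 and 273, and the regulatory ATPase genes Psmc3 and Psmc5 from 103 and 114 to 271, 226 and 232 and from 81.9 and 88.8 to 193, 169.8 and 180.2.

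Genes of antioxidant defence rose in 14 of 29 cases in both tables. Gstp1, a glutathione transferase gene, went from 262 and 279 to 901, 812 and 806. Mt1a, a metallothionein gene, went from 27.7 and 25.6 to 53.7, 169 and 169, with the first PDGF library well below the other 2. Ftl1, a ferritin chain gene, was at 1817, 1267 and 539 in the PDGF libraries against 359 and 399 before, and was not called on the unnormalised table or without 1 of 4 libraries (either unstimulated library, PDGF replicate 0 or PDGF replicate 1). The secretory pathway rose by the normalised table only in most members: 32 of 39 genes there, and 6 in both tables, a share near the 14.9% over all genes. Creb3l1, the factor that drives collagen export genes, went from 5.92 and 6.58 to 23.5, 20.8 and 19.2. In the amino acid and ER stress list 11 of 31 rose in both tables and 1, Vldlr, fell from 246 and 264 to 113, 137 and 112. The stress factor gene Ddit3 went from 43 and 39.4 to 89.5, 91 and 84.4 and the calcium-binding chaperone gene Calr from 526 and 623 to 1281, 1141 and 1274.

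Glycolysis genes rose in 15 of 27 cases in both tables (18 on the normalised table). The count in both tables was 14 without PDGF replicate 0 or 1 and 13 without PDGF replicate 2. Slc16a3, a lactate exporter gene, went from 3.41 and 4.45 to 40.5, 23.6 and 32.3 (2.72 ± 0.26, limma adjusted p = 1.48e-06). Ldha, which makes lactate, went from 249.8 and 266 to 758, 658 and 742, Gapdh from 396 and 478 to 1443, 1243 and 976, and Eno1, the enolase gene, from 175 and 385 to 1175, 1015 and 1157. Eno1 differed between its unstimulated libraries, which still lay below every PDGF value. Pgd, a pentose phosphate gene whose enzyme supplies NADPH, rose from 124 and 141 to 345, 298 and 315. Shmt1, a serine hydroxymethyltransferase gene, fell from 20.3 and 22.5 to 7.93, 10.2 and 9.14. Oxidative phosphorylation genes rose in 32 of 42 cases on the normalised table but in 5 in both tables, below the background of 14.9%, and in 2 without unstimulated replicate 1 or PDGF replicate 0.

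Of 27 cholesterol synthesis genes 15 rose on the normalised table and 6 in both, 2 without unstimulated replicate 0, while 5 fell on the unnormalised table. Olr1, the receptor gene for oxidised lipoprotein, went from 0.201 and 0.439 to 6.62, 5.65 and 5.99, and Lgals3, the galectin 3 gene, from 107 and 124 to 495, 487 and 444. Plin2, which coats lipid droplets, went from 23.9 and 27.2 to 106, 89.5 and 105, and the 3 genes were among 7 of 17 lipid uptake and export genes that rose in both tables, with 2 that fell. Without unstimulated replicate 1 these counts were 5 and 1. Counts of ribosome biogenesis genes depended on the scale, as did those over all genes. Of 26 tested, 8 rose on the normalised table, a share below the 37.7% over all genes. On the unnormalised scale, 6 fell, a share above the 13.4% over all genes. No member rose or fell in both tables.

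For the lists of this paragraph the background was 14.9% higher and 4.9% lower in both tables. Of 15 hypoxia-responsive genes, 4 rose and 1 fell in both tables, and 4 rose and 4 fell on the unnormalised table. The 1 gene that fell was not called in both tables when any 1 PDGF 24 h library was left out. Ddit4, an inhibitor of mTORC1, went from 8.83 and 11.8 to 70.6, 52.5 and 57.7 and Epas1, the HIF-2 alpha gene, from 2.93 and 2.89 to 16.6, 16.9 and 19.8. Among genes of quiescence and FoxO targets 9 of 27 rose and 5 fell in both tables. The arrestin family genes Arrdc3 and Txnip rose from 18.7 and 13.3 to 98.4, 99.8 and 119 and from 60.4 and 72.3 to 144, 122 and 116. Sesn3, a FoxO target, went from 9.48 and 10.9 to 62.6, 71.6 and 69.1 (2.62 ± 0.22, limma adjusted p = 2.86e-07). Of 17 clock genes 5 rose in both tables, with Npas2 going from 0.925 and 0.501 to 7.31, 5.8 and 6.18, Dbp from 17.9 and 18.2 to 43.1, 47.8 and 40.5 and Nr1d1 from 12.7 and 16.3 to 35.1, 37 and 29.5.

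Developmental transcription factor genes rose in 8 of 25 cases and fell in 5 in both tables, and 3 fell without PDGF replicate 1 or without either unstimulated library. Prrx1, a mesenchymal homeobox gene, went from 19.6 and 26.8 to 161, 127 and 157 (2.64 ± 0.19, limma adjusted p = 8.34e-08) and Osr1, a zinc finger gene of mesenchyme, from 288 and 332 to 89.7, 98.2 and 84.1. Etv4, an ETS factor gene, went from 10.7 and 11.9 to 40.2, 30.8 and 36, and Prrx2, the paralog of Prrx1, from 23.6 and 23.7 to 59.8, 66.6 and 61.1. Genes of BET proteins, which JQ1 binds, and of the P-TEFb kinase complex gave calls that depended on the table. Brd3 stood at 26.1 and 26 before and 29.3, 22.2 and 22 after, and Brd2 at 0.909 and 0.513 before and 1.11, 0.876 and 0.88 after. Cdk9, the P-TEFb kinase gene, stood at 47.1 and 52.7 before and 77.9, 65.5 and 77.8 after, with its cyclin gene Ccnt2 at 10.4 and 10.2 before and 10.2, 11 and 10.1 after. Hexim1 and Larp7, of the complex that holds the kinase inactive, went from 39.8 and 36.6 to 65.5, 55 and 56.9 and from 22.7 and 30.3 to 32, 38.4 and 37.5. Cdk9, Hexim1 and Larp7 rose on the normalised table only, and Brd3 fell on the unnormalised table only.

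Other genes among the 20 highest had varied roles. Ptprn, which encodes a membrane protein of secretory granules, went from 4.11 and 1.97 to 245, 217 and 233 (5.90 ± 0.21, limma adjusted p = 2.97e-11). Nptxr, a pentraxin receptor gene, went from 14 and 13.4 to 329, 292 and 321, and Hmga1, a gene of an architectural chromatin protein, from 74.7 and 70.7 to 1684, 1374 and 1603. Arhgap22, a GTPase-activating protein for Rac, rose from 2.85 and 2.99 to 66, 52.4 and 56.9. Layn, a hyaluronan receptor gene, Slco2a1, a prostaglandin transporter gene, Sprr1a, Esm1 and Rgs16 rose by 3.49, 3.66, 3.73, 3.71 and 3.52. Among the 20 lowest, Aldh1a2, which makes retinoic acid, went from 22.8 and 22.8 to 1.1, 1.36 and 1.75 (-3.32 ± 0.27). Rgs4, a regulator of G protein signalling like Rgs16, fell from 74.7 and 91.8 to 15.1, 12.5 and 13, opposite to it. Rgcc, Fam150a, Ppap2b, Wfdc1 and St8sia2 had differences of -3.55, -3.02, -2.53, -2.54 and -2.49.

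Marker genes of cell types were read beside these changes. Smooth muscle markers fell in 6 of 9 cases, in both tables and with any 1 library left out, and their summed unnormalised FPKM went from 10422 and 10026.0 to 1396, 1519 and 1271. Des, the desmin gene, stood at 0.474 and 0.343 before and 2.48, 1.16 and 0.922 after, did not pass on the normalised table and was below the filter on the other, while Smtn, the smoothelin gene, at 44 and 49.6 before and 52, 39.6 and 41.1 after, fell only on the unnormalised table. Endothelial markers summed to 11 and 10.1 unnormalised FPKM before and 23.5, 20.7 and 22.7 after, over 12 genes, of which Cdh5, Kdr, Sox17, Emcn and Robo4 were listed at 0 in all 5 libraries. Flt1 and Tek rose, from 5.12 and 4.64 to 23.1, 19 and 25.5 and from 0.0998 and 0.268 to 3.18, 2.34 and 0.809, the latter not without unstimulated replicate 0. Fibroblast markers summed to 132 and 127 before and 96.1, 116 and 101 after in unnormalised FPKM, over 9 genes, but to 123 and 130.2 before and 134, 151 and 137 after in normalised FPKM. Pericyte markers, over 8 genes, summed to 100.2 and 102 before and 97.3, 98.3 and 103 after in unnormalised FPKM, and to 95.6 and 103 before and 136, 129 and 138 after in normalised FPKM. Within them Rgs5 fell from 7.46 and 5.08 to 0.201, 3.57 and 1.42, while Cspg4 and Abcc9 rose from 23.8 and 26.4 to 67.9, 55.6 and 64.7 and from 1.81 and 1.36 to 6.93, 6.65 and 5.7. Rgs5, a regulator of G protein signalling, was called in both tables only with all libraries or without PDGF replicate 1. The part of other cells in any result above was not tested.

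In 10 genes named by the rule, levels after 2 h and 24 h of PDGF lay on opposite sides of the unstimulated level. These 2 comparisons share the unstimulated libraries, so the 24 h and 2 h libraries were also compared directly. Hbegf stood at 53.5 and 56 before, 619, 712 and 812 at 2 h and 21.3, 20.4 and 25.4 at 24 h (24 h minus 2 h -4.93 ± 0.13, limma adjusted p = 9.33e-13). Cnn1 stood at 588, 641 and 797 at 2 h and Csrp2 at 69.1, 83.9 and 72.3, above both other groups. Txnip took the reverse course, with 60.4 and 72.3 before, 2.37, 3.99 and 3.09 at 2 h and 144, 122 and 116 at 24 h (4.97 ± 0.16, limma adjusted p = 9.17e-12). Pdgfra stood at 3.19, 5.73 and 4.83 at 2 h, below both other groups. The same held for Pdgfrb, at 189.7, 233 and 253, for Dbp, at 4.82, 6.31 and 4.3, and for Lipa, the lysosomal acid lipase gene, at 18.9, 24.4 and 21.3. Dtx4, a ubiquitin ligase gene of the Notch list, stood at 0.324, 0.205 and 1.04 at 2 h and Hexim1 at 18.3, 27.2 and 22.7, and their calls at 24 h held on the normalised table only.

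**Figure D5:**
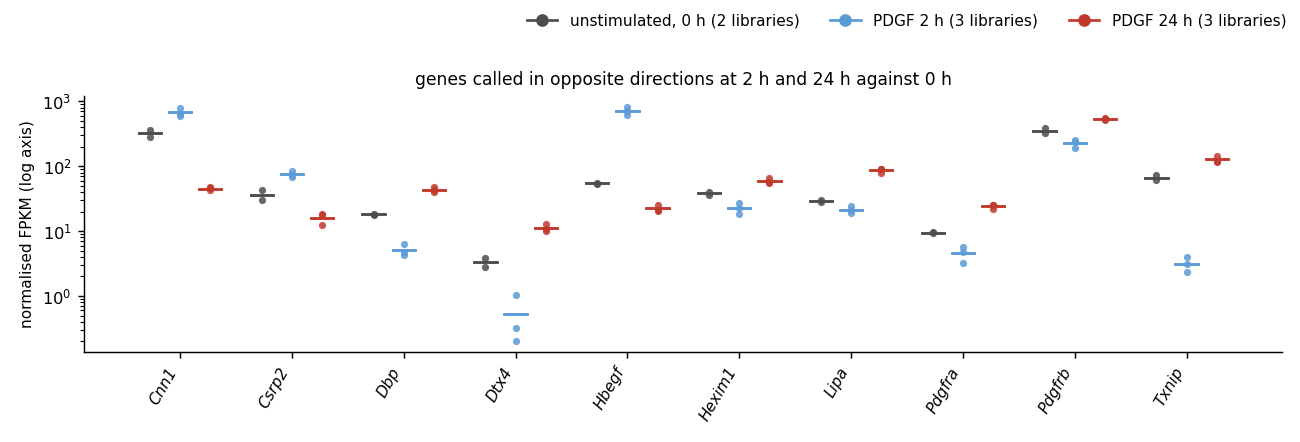
Points are normalised FPKM of single libraries on a log axis and short lines are group means at 0 h (grey, 2 libraries), PDGF 2 h (blue, 3 libraries) and PDGF 24 h (red, 3 libraries). Cnn1, Csrp2 and Hbegf are highest at 2 h and lowest at 24 h, and the other 7 genes are lowest at 2 h and highest at 24 h.

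A few short or multi-copy loci stood apart from the rest and are uncertain. Rpl37, of the large ribosomal subunit, was listed at 0 in both unstimulated libraries and at 560.1, 457 and 435 unnormalised FPKM with PDGF, so no fold is given. The microRNA loci Mir31 and Mir3561 were likewise listed at 0 before, and at 297, 25.0 and 81.0 and at 200.3, 44.9 and 24.2 unnormalised FPKM after PDGF. These loci were singled out after their values were seen. Libraries of polyadenylated RNA do not read the mature microRNA, so neither arm was measured. The mature RefSeq sequences (GRCr8) are printed to identify the loci, with the seed, bases 2 to 8, in capitals. The Mir31 arms lie at chr5:108714906-108714927 and chr5:108714869-108714891 and the Mir3561 arms at chr7:22195216-22195236 and chr7:22195172-22195192, all on the minus strand.
rno-miR-31a-5p: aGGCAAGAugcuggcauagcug
rno-miR-31a-3p: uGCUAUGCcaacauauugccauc
rno-miR-3561-5p: aCUGUGUCaauccaggguaga
rno-miR-3561-3p: uAUCCAGGguagacacucaga
The 4 seeds differ. Mir143, whose microRNA is known to hold smooth muscle cells in the contractile state, stood at 330 and 732 unnormalised FPKM before and 0, 104 and 224 after (limma adjusted p = 0.061), and Mir21 was listed at 0 before and at 390, 43.7 and 0 after (limma adjusted p = 0.132).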

How the data were processed

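Polyadenylated RNA of 5 groups (14 libraries) was made into stranded libraries read as 40-base single reads, with spike-in RNA added in proportion to 500k cells per group, per the labels. HISAT, Cufflinks 2.0.0 and the build rn6 are named in the submitters' processing notes. The authors deposited a table of unnormalised FPKM and a table of normalised FPKM, each with 17404 rows (17312 genes and 92 spike-ins). The sources used here do not say how the normalised FPKM were made. Every column was matched to a group by its name (0 were left without a group). An exact 0 of the unnormalised table, which is above 0 in the normalised one, can be a failed estimate. Read depth is unknown, since neither table holds counts.

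Genes at 1 FPKM or more in at least 2 libraries were fitted on the log2(FPKM + 1) scale with limma 3.58.1 (R 4.3.3, a mean trend, 5 groups, 9 residual degrees of freedom) and p-values were adjusted by Benjamini-Hochberg over all genes tested. The same fit was made on each table. Results were collected in Python 3.11.15 with pandas 2.3.3, and the code was tested on simulated data. Alternatives covered the table, the scaling (1 spike-in factor per library, or median centring), pseudocounts of 0.1 and 0.25, no minimum or a minimum of 5, the libraries in the fit, the mean trend and each library left out. Promoter windows and microRNAs were taken from RefSeq (GRCr8), and promoter windows were matched to genes by symbol.

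The comparison and all gene lists (53 lists, 1328 genes, of which 1257 are in the tables) were chosen with earlier results of these data known. The other 71 listed genes were not analysed here. The genes named were the 20 highest and 20 lowest differences among the 1937 genes called the same way on both tables with no overlap of ranges, the 4 largest called differences of each list, all members of lists of 9 or fewer, and a fixed set of 25 genes, which gave 241 genes. Rows named only as loci or small RNAs were left out of the ranking. Genes named outside this rule, among them those of small counts and of the printed promoters, were chosen after their values were seen. A few genes are not reported here.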

Additional observations from a re-analysis of the deposited data

Results flagged for a closer look

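In 10 genes the calls against unstimulated cells pointed in opposite directions after 2 h and after 24 h of PDGF on the normalised table, and the 24 h and 2 h libraries also differed from each other in the direct limma comparison. The values here are the direct differences, 24 h minus 2 h, on the log2(normalised FPKM + 1) scale, over 3 libraries each. The heparin-binding EGF-like growth factor gene Hbegf (-4.93), the calponin gene Cnn1 (-3.86) and the LIM protein gene Csrp2 (-2.17) were above the unstimulated level at 2 h and below it at 24 h. Txnip (4.97), an arrestin family gene, Dtx4 (3.04), a gene of the Notch list, the clock output gene Dbp (2.88) and the PDGF receptor gene Pdgfra (2.19) were below it at 2 h and above it at 24 h. The lysosomal acid lipase gene Lipa (1.97), Hexim1 (1.35), of the complex that holds P-TEFb inactive, and Pdgfrb (1.26) followed the same course. The calls of Dtx4, Hexim1 and Pdgfrb at 24 h were not shared by the unnormalised table.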

How the results depend on the processing

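The scale changed the counts most. Of genes higher at 24 h, 3823 on the normalised table became 1481 on the unnormalised and 1478 on the median-centred unnormalised table, and genes lower, 491, became 1345 and 1341. Past 2-fold, 1176 higher became 460 and 454, and 278 lower became 495 and 489. The median difference of 0.41 became 0 on both, 0.34 with 1 spike-in factor per library and 0.29 without a filter. The other settings kept the counts within 1.5 times. With each library left out in turn, where a lone unstimulated library is assumed to vary like the other groups, 2126 to 3482 genes were higher and 342 to 446 lower on the normalised table, 974 to 1354 and 250 to 280 past 2-fold, and the median lay between 0.38 and 0.45. The same was done on the unnormalised table, a choice made after seeing the data, with 1021 to 1270 higher and 849 to 1144 lower, and on both tables together, with 1014 to 1270 higher and 334 to 439 lower. The lowest counts of higher genes on each table came without unstimulated replicate 0. Of the 240 named genes tested, 213 were called or not called alike on the unnormalised table, 19 lost the call, 5 gained one and 1 was not tested. The remaining 2, each called on 1 table, changed sign: Larp7 (-0.001) and Pdgfrl (-0.39, on the median-centred table too). Genes called on neither table could change sign within the 213, as Brd2 (0.20 and -0.04) and Ccnt2 (0.01 and -0.41) did. Leaving out an unstimulated library ended 16 calls, either way, and leaving out a PDGF library 4 to 9. The cause was not tested. No paired analysis was possible because the table columns carry digits and the sample titles letters. Precision is limited by 2 unstimulated libraries and by unknown read depth.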

Other observations

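Some genes of the cells' matrix were listed near 0, as values with no comparison. Col1a2, the partner chain gene of Col1a1 in type I collagen, was listed at 0 and 0.129 unnormalised FPKM in the unstimulated libraries and at 0.0333, 0.0503 and 0.109 in the PDGF 24 h libraries, whereas Col1a1 stood at 2077 and 1959 and 4539, 4493 and 4299. The decorin gene Dcn was listed at 0 and 0 and 0, 0 and 0.109.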
